A study of Homo sapiens with 6 samples.

Results

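AXL, CCDC80, FJX1 and CCN2 are 4 genes known as targets of the transcriptional co-activator YAP, and their transcripts were measured in Hs578T cells given a small interfering RNA (siRNA) against CSRP2 or a non-targeting RNA. The 4 were chosen by name, with their values in this comparison already known, from 14884 genes measured on the arrays. Each gene is given by the probe set (the group of array probes that reports 1 transcript region) with the highest mean over the 6 arrays. Their own differences between the groups are therefore a description, with no test. AXL, CCDC80 and FJX1 were lower in siCSRP2 cells and CCN2 was higher.

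Hs578T is a long-established human breast cancer cell line with mesenchymal traits, and the product of CSRP2 is an actin-bundling protein built from LIM domains. The siCSRP2 group and the siControl group each held 3 arrays, numbered 1 to 3. All cells were of the same line, grew in DMEM medium supplemented with serum (10%) and insulin (0.01 mg/ml), were transfected with a lipid reagent, were moved to new wells after 24 h and gave RNA 48 h later. Nothing in the labels tells whether the arrays of a group stem from separate cultures, and the p-values cover the spread among these 6 arrays and no more, and that spread may be technical.

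YAP and its relative TAZ (gene WWTR1) carry no DNA-binding domain and act on genes through the TEAD transcription factors. The Hippo kinases MST (genes STK3 and STK4) activate the LATS kinases. LATS phosphorylates YAP and TAZ, which keeps them out of the nucleus. Tension in the actin cytoskeleton and spreading of the cell favour nuclear YAP, and in mesenchymal breast cancer lines YAP and TAZ are known to be active. AXL is a receptor tyrosine kinase of the TAM family, bound by the ligand GAS6. CCDC80 is a secreted protein associated with the extracellular matrix. FJX1 is the human relative of the fly gene four-jointed, a Golgi kinase that in Drosophila phosphorylates the giant cadherins Fat and Dachsous upstream of Hippo. CCN2, formerly CTGF, is a secreted matricellular protein and a standard readout of YAP activity.

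The upstream windows of the 4 genes are shown because TEAD factors recognise a short motif whose copies differ between them. Each is the 250 bases before an annotated start, from RefSeq on GRCh38.p14, 5′ to 3′ on the gene's strand, with the TEAD core GGAATG (or CATTCC, its reverse complement) in capitals. All 4 genes were matched by symbol, and AXL had 2 annotated starts. The AXL windows lie at chr19:41218973-41219222 and chr19:41226505-41226754 on the plus strand, and that of FJX1 at chr11:35618210-35618459 on the plus strand. The CCDC80 window lies at chr3:112641144-112641393 and the CCN2 window at chr6:131951373-131951622, both on the minus strand.
CCN2: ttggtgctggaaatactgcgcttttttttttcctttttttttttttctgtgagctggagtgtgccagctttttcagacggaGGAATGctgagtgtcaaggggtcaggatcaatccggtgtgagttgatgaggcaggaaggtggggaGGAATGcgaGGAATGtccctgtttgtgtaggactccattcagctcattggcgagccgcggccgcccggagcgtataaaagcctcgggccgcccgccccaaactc
AXL, first start: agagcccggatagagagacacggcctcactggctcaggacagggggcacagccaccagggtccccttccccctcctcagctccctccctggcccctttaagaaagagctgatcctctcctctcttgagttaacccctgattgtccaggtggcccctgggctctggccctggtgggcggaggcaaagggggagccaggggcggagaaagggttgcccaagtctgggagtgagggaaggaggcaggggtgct
AXL, second start: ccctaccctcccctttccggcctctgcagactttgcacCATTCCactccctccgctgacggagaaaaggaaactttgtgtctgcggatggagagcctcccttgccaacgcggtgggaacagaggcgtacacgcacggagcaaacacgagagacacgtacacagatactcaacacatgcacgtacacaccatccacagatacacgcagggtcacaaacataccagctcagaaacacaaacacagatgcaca
CCDC80: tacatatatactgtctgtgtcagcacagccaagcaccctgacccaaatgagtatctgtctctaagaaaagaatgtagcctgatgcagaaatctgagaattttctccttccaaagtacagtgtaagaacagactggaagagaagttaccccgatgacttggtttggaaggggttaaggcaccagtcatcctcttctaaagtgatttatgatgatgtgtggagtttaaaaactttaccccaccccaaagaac
FJX1: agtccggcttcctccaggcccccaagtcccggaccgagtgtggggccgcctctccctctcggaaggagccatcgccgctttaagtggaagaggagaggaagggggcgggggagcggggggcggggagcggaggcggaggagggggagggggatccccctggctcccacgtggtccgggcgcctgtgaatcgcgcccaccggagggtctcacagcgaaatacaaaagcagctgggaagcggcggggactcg

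CCN2 held 3 copies of the TEAD core, all on the gene's own strand, beginning 169, 104 and 95 bases before the start. Among 35116 such windows of RefSeq genes, 11.9% held at least 1 copy and 0.0826% (29 windows) held 3 or more. The second AXL start had 1 copy, on the opposite strand 212 bases upstream. The letters were not found in the first AXL window, in CCDC80 or in FJX1, which says only that they are not in these 250 bases. Searched on both strands as well were an AP-1 motif (TGANTCA, present in 6.57% of windows), a SMAD box (CAGACA, 13.6%) and the CArG box of SRF (1.16%). The SMAD box occurred once in the second AXL window and once in CCDC80, and the AP-1 motif and the CArG box in none of the 5 windows. None of these matches overlapped another. Of genes with a listed window, the core stood in at least 1 window of 14.6% of 792 genes that fell and 15.3% of 85 that rose, against 13.3% of 10749 genes tested.

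**Figure D1:**
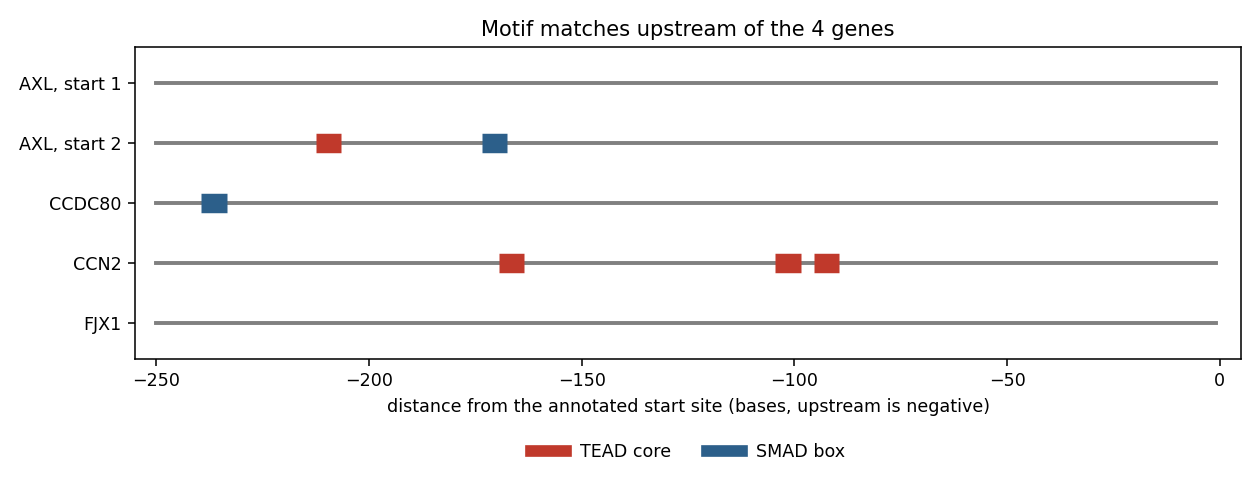
Motif matches in the 250 bases upstream of each annotated start of the 4 genes, with the distance from the start site in bases on the horizontal axis and 1 row per start. CCN2 carries 3 TEAD cores (red), the second AXL start carries 1, and SMAD boxes (blue) occur at the second AXL start and in CCDC80.

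The siRNA target was examined first. CSRP2 measured 3.25, 3.76 and 4.26 on siCSRP2 arrays 1, 2 and 3, against 3.69, 4.01 and 4.35 on siControl arrays 1, 2 and 3, in log2 units as deposited. The groups overlapped, and the difference of -0.26 (SE 0.26, 95% interval -0.84 to 0.32) missed the threshold (limma adjusted p = 0.583, or 0.188 when the replicate number entered the fit as a block). The target thus gives no check of the labels, and siCSRP2 here means the arrays labelled so. Over all genes the first principal component held 63.2% of the variance. It placed siControl 3 at -2.05, between the other siControl arrays (-31.5 and -31.2) and the siCSRP2 arrays (14.01 to 30.7). Vimentin, VIM, a mesenchymal marker, measured 6.98 to 7.45 on siCSRP2 arrays and 7.97 to 8.17 on siControl arrays, a fall of 0.82 on the log2 scale (limma adjusted p = 0.0149). ESR1, the oestrogen receptor that this line is known to lack, stayed between 2.49 and 2.94 over all arrays. Of 12 mesenchymal, 13 epithelial and luminal, and 10 blood and endothelial markers listed, 6, 12 and 6 were measured. All 6 mesenchymal markers were lower in siCSRP2 and 4 fell, where 6.54% of all genes fell: VIM, fibronectin FN1 (-0.59), the transcription factor SNAI2 (-1.21) and S100A4 (-0.77). Their limma adjusted p lay between 0.0149 and 0.0394. At an unadjusted p of 0.05, 5 of the 6 mesenchymal markers were lower, where 17.4% of all genes were lower. All 4 passed without siControl 3. Without siControl 1 or siControl 2 none of the 4 passed (adjusted p of 0.0588 to 0.167), nor without siCSRP2 3 (0.0518 to 0.11), and SNAI2 missed the threshold after quantile normalization (0.064). The mean log2 value of the mesenchymal markers was 5.74 to 6.09 on siCSRP2 arrays and 6.46 to 6.65 on siControl arrays. That of the epithelial markers was 3.30 to 3.46 on siCSRP2 and 3.32 to 3.38 on siControl arrays, and that of the blood and endothelial markers 3.47 to 3.87 on siCSRP2 and 3.49 to 3.58 on siControl arrays. In that last list 0 passed, 5 were higher and 1 lower. CD68 was bright, at 8.24 ± 0.28 in siCSRP2 and 7.60 ± 0.30 in siControl cells (SD, n = 3 each). Its groups overlapped, and it differed by 0.64 (limma adjusted p = 0.0778). PECAM1 (-0.24), KDR (0.11) and VWF (0.11) stayed between 2.23 and 2.69. The part of these markers in the results was not tested.

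Of the 4 genes, AXL had the widest gap between the groups. In RNA from whole cultures, fewer cells with a transcript and less of it per cell cannot be told apart. AXL measured 6.53, 7.03 and 6.21 on siCSRP2 arrays 1, 2 and 3, against 8.36, 8.67 and 7.93 on siControl arrays 1, 2 and 3. Every siCSRP2 value lay below every siControl value, and the nearest values of the groups were 0.90 apart. The means were 6.59 ± 0.41 in siCSRP2 and 8.32 ± 0.37 in siControl cells (SD, n = 3 each), a log2 difference of -1.73 (SE 0.24), or 3.32-fold lower. Between arrays of equal replicate number the differences were -1.83, -1.64 and -1.72, close to each other although AXL itself varied by 0.82 within siCSRP2 and 0.74 within siControl. In each group array 2 was the highest for AXL and array 3 the lowest.

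CCDC80, the secreted matrix protein, measured 4.62, 4.21 and 4.18 on siCSRP2 arrays, against 5.60, 5.69 and 5.39 on siControl arrays. The groups did not overlap, and the siControl values lay within 0.30 of each other. The means were 4.34 ± 0.24 in siCSRP2 and 5.56 ± 0.15 in siControl cells (SD, n = 3 each), a log2 difference of -1.22 (SE 0.15), or 2.33-fold lower. The order of the siCSRP2 arrays differed from that of AXL, with array 1 the highest.

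FJX1, the relative of four-jointed, measured 4.49, 4.86 and 4.20 on siCSRP2 arrays, against 6.0, 6.08 and 5.14 on siControl arrays. The groups did not overlap, but siControl 3 came within 0.28 of siCSRP2 2. The means were 4.51 ± 0.33 in siCSRP2 and 5.74 ± 0.52 in siControl cells (SD, n = 3 each), a log2 difference of -1.23 (SE 0.26), or 2.34-fold lower. Without siControl 3 the difference was -1.53. As for AXL, array 2 was the highest and array 3 the lowest in each group.

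CCN2 ran the other way. It measured 7.28, 7.13 and 7.17 on siCSRP2 arrays, against 6.31, 6.53 and 6.88 on siControl arrays. Each siCSRP2 value lay above each siControl value, by at least 0.25. The siCSRP2 values lay within 0.15 of each other and the siControl values within 0.57. The means were 7.19 ± 0.08 in siCSRP2 and 6.58 ± 0.29 in siControl cells (SD, n = 3 each), a log2 difference of 0.62 (SE 0.15), or 1.54-fold higher. The pairs of equal replicate number differed by 0.96, 0.60 and 0.29.

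A second probe set named for CCN2 did not separate the groups. It read 3.30, 2.74 and 3.51 on siCSRP2 arrays, against 2.85, 2.60 and 3.62 on siControl arrays. Its mean was 3.18 ± 0.40 in siCSRP2 and 3.02 ± 0.53 in siControl cells (SD, n = 3 each), a difference of 0.16. The mean of both probe sets differed by 0.39, so the size of the CCN2 difference depends on which probe set is read. AXL, CCDC80 and FJX1 had 1 probe set each.

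**Figure D2:**
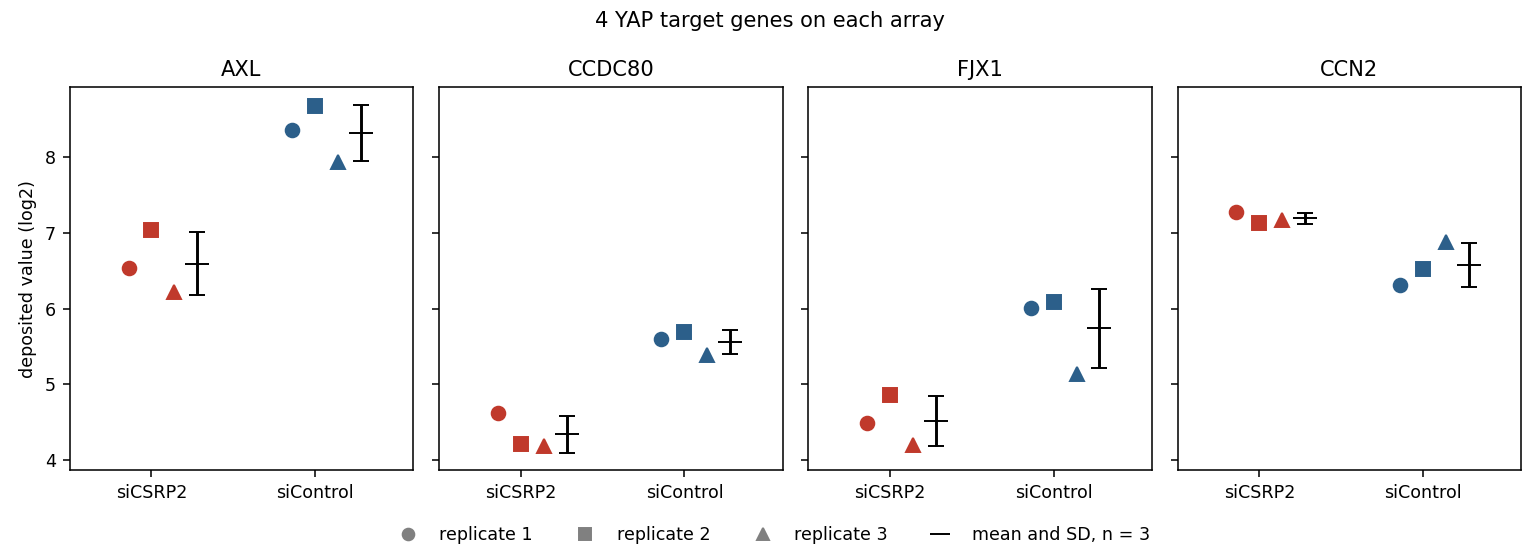
Deposited log2 values of AXL, CCDC80, FJX1 and CCN2 on the 3 siCSRP2 arrays (left, red) and the 3 siControl arrays (right, blue), with symbols for the replicate number and bars for mean and SD (n = 3). The siCSRP2 arrays lie below the siControl arrays for AXL, CCDC80 and FJX1 and above them for CCN2, and siControl 3 is the siControl array nearest to siCSRP2 in each panel.

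None of the 4 genes overlapped between the groups, 3 with siCSRP2 below and 1 with siCSRP2 above. Over all 14884 genes the shares without overlap were 16.2% below and 11.5% above. Differences of at least the same size and sign were seen for 25 genes at the value of AXL, 145 at that of CCDC80, 141 at that of FJX1 and 188 at that of CCN2, each count including the gene itself. These are descriptions, since the genes were chosen with them known.

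siControl 3 lay toward the siCSRP2 arrays for each of the 4 genes. Relative to the siControl mean it was at -0.39 for AXL, -0.17 for CCDC80, -0.60 for FJX1 and 0.31 for CCN2. Without siControl 3 the differences were -1.93 for AXL, -1.31 for CCDC80, -1.53 for FJX1 and 0.77 for CCN2, all larger in size than with it. Leaving out any 1 array kept AXL between -1.95 and -1.54, CCDC80 between -1.36 and -1.14, FJX1 between -1.53 and -1.06 and CCN2 between 0.49 and 0.77. Scaling changed them little: after quantile normalization they were -1.65, -1.05 and -1.08 for AXL, CCDC80 and FJX1 and 0.70 for CCN2.

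**Figure D3:**
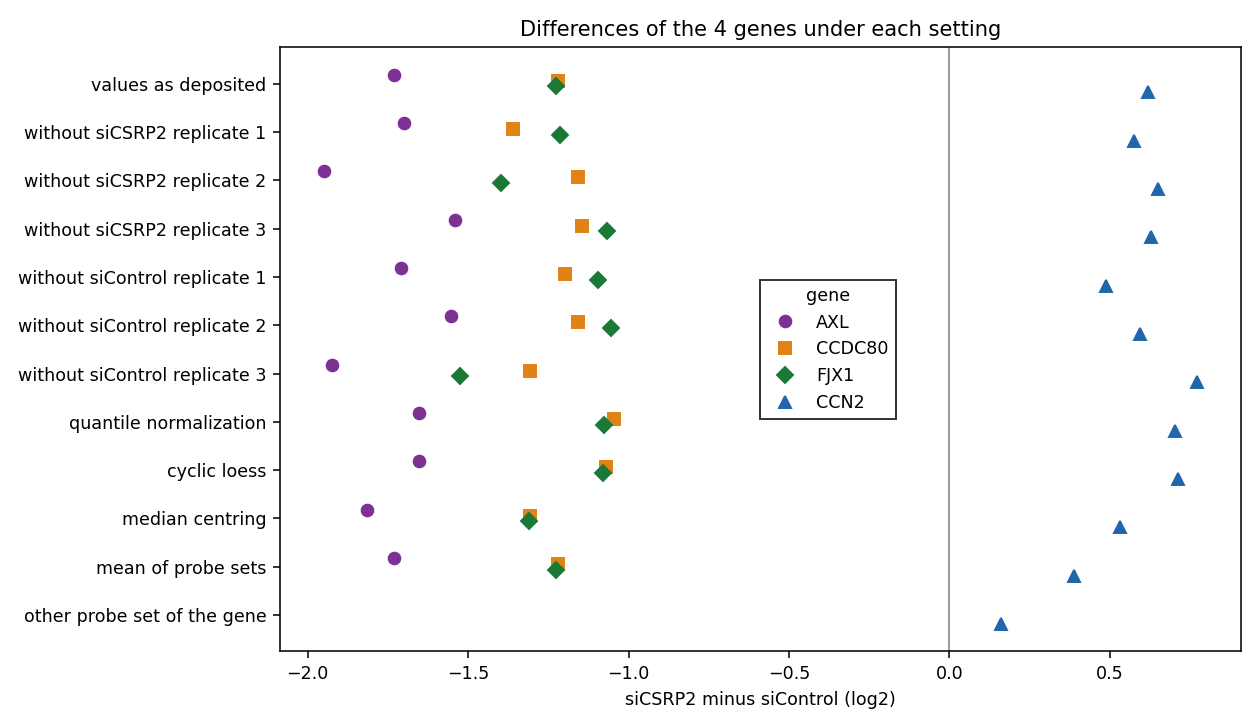
Difference of siCSRP2 minus siControl (log2, horizontal axis) for the 4 genes under each setting (rows): as deposited, with 1 array left out, after other scalings, and with other uses of the probe sets. AXL, CCDC80 and FJX1 stay below 0 and CCN2 above 0 in each row that shows them, with CCN2 nearest to 0 (0.16) on its other probe set.

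Over the 6 arrays AXL and FJX1 had the most similar profiles of the 4 (r = 0.97), followed by AXL and CCDC80 (0.93) and CCDC80 and FJX1 (0.89). CCN2 was opposed to AXL (-0.91), CCDC80 (-0.87) and FJX1 (-0.95). These Pearson correlations are over 6 arrays that fall into the 2 groups compared and share their scaling, so they mostly restate the group difference. By the same measure the genes closest to AXL were OGFR (r = 0.998), the arginine methyltransferase PRMT2 (0.996) and the pseudokinase TRIB2 (0.995). TRIB2 averaged 4.55 ± 0.21 in siCSRP2 and 5.95 ± 0.31 in siControl cells (SD, n = 3 each). Closest to CCDC80 were the transmembrane protein HEG1, the chromatin remodeller CHD6 and the kinase RIPK4 (r = 0.999, 0.998 and 0.997). RIPK4 averaged 2.99 ± 0.44 in siCSRP2 and 4.77 ± 0.22 in siControl cells (SD, n = 3 each). Closest to FJX1 were the laminin receptor BCAM, the mitochondrial ribosomal protein MRPL37 and ACIN1 (r = 0.998 to 0.999). Closest to CCN2 were the spermine oxidase SMOX (r = 0.988), the ETS repressor ETV3 (0.983) and UBXN1 (0.981). SMOX averaged 5.69 ± 0.0065 in siCSRP2 and 5.14 ± 0.32 in siControl cells (SD, n = 3 each).

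Among the other genes of the signature that holds the 4, only DOCK5 passed the test, and as many were higher as lower. That signature holds 22 YAP and TAZ targets, of which 12 were measured here under a gene name, the 4 and 8 more. Of the 8, 1 fell (DOCK5), 0 rose and 7 did not pass the test (limma on all genes, Benjamini-Hochberg adjusted p of 0.05). At an unadjusted p of 0.05, 2 of the 8 were lower (DOCK5 and FOXF2) and 0 higher. Over all genes 6.54% fell and 0.800% rose, and at the unadjusted p 17.4% were lower and 6.32% higher. The median difference of the 8 was -0.07, beside 0.02 over all genes, and 4 were lower and 4 higher in siCSRP2.

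DOCK5, an exchange factor that activates Rac, measured 4.56, 4.49 and 4.23 on siCSRP2 arrays, against 4.79, 5.23 and 5.11 on siControl arrays. The values of the groups were separate, and the difference was -0.62 (SE 0.15, limma adjusted p = 0.0442), or 1.53-fold lower. It passed in 1 of 6 fits that left out an array, that without siControl 3 (0.0418), and the others gave adjusted p of 0.057 to 0.182. It also missed the threshold after quantile normalization (adjusted p = 0.118).

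FOXF2, a forkhead transcription factor, averaged 2.86 ± 0.02 in siCSRP2 and 3.17 ± 0.11 in siControl cells (SD, n = 3 each), a difference of -0.31 that did not pass (limma adjusted p = 0.115). MYOF, the membrane repair protein myoferlin, differed by -0.20 and the growth factor binding protein IGFBP3 by -0.28. AMOTL2, a YAP-binding angiomotin, differed by 0.31, CRIM1 by 0.26, the exchange factor ARHGEF17 by 0.05 and ANKRD1, a muscle ankyrin repeat protein often used as a YAP readout, by 0.12. ANKRD1 stayed between 2.13 and 2.49 on all arrays, and no detection call was at hand to tell such a level from background. The adjusted p of these 6 ran from 0.234 to 0.881 (limma). CCN1, the other standard YAP readout, was among the 10 signature genes not analysed here under a gene name.

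Transcripts of YAP, of TAZ and of 2 TEAD factors were lower in siCSRP2 cells on each array, though on the values as deposited 3 of these 4 genes passed the test with the replicate block and not without it. Of 10 measured genes for YAP, TAZ, TEAD factors and their VGLL competitors and partners, 1 fell, TEAD2, 0 rose and 9 did not pass. In the fit blocked on replicate number, 4 fell and 1 rose, where over all genes 13.1% fell and 2.67% rose. At an unadjusted p of 0.05 without the block, 4 were lower and 1 higher. Without the block the shares over all genes were 6.54% for falls and 0.800% for rises, and 17.4% and 6.32% at the unadjusted p.

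TEAD2, a DNA-binding partner of YAP, measured 3.18, 3.81 and 3.35 on siCSRP2 arrays, against 4.06, 4.55 and 4.24 on siControl arrays. All siCSRP2 values lay below all siControl values, and the difference was -0.84 (SE 0.19, limma adjusted p = 0.035, and 0.00282 with the block). TEAD2 passed in 2 of 6 fits that left out an array, those without siControl 3 and without siCSRP2 2, and the others gave adjusted p of 0.0719 to 0.149.

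YAP1 itself measured 4.15, 4.54 and 4.59 on siCSRP2 arrays, against 4.86, 4.88 and 5.05 on siControl arrays. The arrays of the groups were fully separate, yet the difference of -0.50 (SE 0.14) passed with the replicate block (limma adjusted p = 0.0247) and not without it (0.0684). As the mean of its probe sets YAP1 differed by -0.41 (limma adjusted p = 0.119 without the block). WWTR1, which encodes TAZ, measured 4.88, 4.80 and 5.11 on siCSRP2 arrays, against 5.41, 5.29 and 5.49 on siControl arrays. It differed by -0.47 (SE 0.12) and likewise passed with the block (limma adjusted p = 0.0225) and not without it (0.0526). TEAD1 was lower by a similar margin, at -0.39 (SE 0.10, limma adjusted p = 0.0429 with the block and 0.0603 without it). These 3 differences depended on how the arrays were scaled. After median centring YAP1, WWTR1 and TEAD1 passed without the block (limma adjusted p = 0.0364, 0.0245 and 0.0256). After quantile normalization they shrank to -0.32, -0.30 and -0.23 and did not pass (limma adjusted p = 0.253, 0.206 and 0.272), nor did they after cyclic loess (0.195, 0.175 and 0.225). TEAD2 missed the threshold under both as well (limma adjusted p = 0.0598 and 0.0566), at -0.74 and -0.71.

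VGLL3, which binds TEAD factors in place of YAP, measured 4.47, 4.95 and 4.68 on siCSRP2 arrays, against 3.66, 3.66 and 4.60 on siControl arrays. siControl 3 lay among the siCSRP2 values, so the groups overlapped. The difference of 0.73 (SE 0.25) passed with the block (limma adjusted p = 0.0484, and 0.12 without it) and, with no block, when siControl 3 was left out (1.04, adjusted p = 0.00242). TEAD3, TEAD4, VGLL1, VGLL2 and VGLL4 differed by between -0.17 and 0.19.

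Upstream, among 20 measured Hippo kinases, adaptors and junction scaffolds, 2 fell, NF2 and TAOK3, 0 rose and 18 did not pass. At an unadjusted p of 0.05, 4 were lower and 0 higher. Over all genes 6.54% fell, and 17.4% were lower at the unadjusted p, so counts of this size in 20 genes are near the background. The median difference was 0.01, beside 0.02 over all genes. NF2 encodes merlin, the membrane scaffold that recruits LATS, and measured 4.14, 4.11 and 3.91 on siCSRP2 arrays, against 5.03, 4.94 and 4.39 on siControl arrays. No siCSRP2 value reached the siControl range, and the difference was -0.73 (SE 0.17, limma adjusted p = 0.0425). TAOK3, of the family of kinases that activate MST, averaged 3.82 ± 0.19 in siCSRP2 and 4.34 ± 0.09 in siControl cells (SD, n = 3 each), a difference of -0.52 (SE 0.13, limma adjusted p = 0.0454).

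The related TAOK1 (-0.44) and TAOK2 (-0.42) passed with the replicate block (limma adjusted p = 0.0322 and 0.0474) and not without it (0.147 and 0.149). TAOK2 also passed, with no block, when siControl 3 was left out (-0.57, limma adjusted p = 0.0273), and TAOK1 was nearer 0 after quantile normalization (-0.28). NF2 passed in 1 and TAOK3 in 2 of 6 fits that left out an array, and neither passed after quantile normalization (limma adjusted p = 0.0777 and 0.133). In the fits in which they did not pass, adjusted p ran from 0.0686 to 0.176 for NF2 and from 0.135 to 0.173 for TAOK3; siControl 3 was left out where NF2 passed, and siControl 3 or siCSRP2 1 where TAOK3 passed. STK3, STK4, SAV1, MOB1A and MOB1B, the core kinase module as far as it was measured, differed by -0.32 to 0.18 and did not pass. LATS1 and LATS2 were not analysed here.

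**Figure D4:**
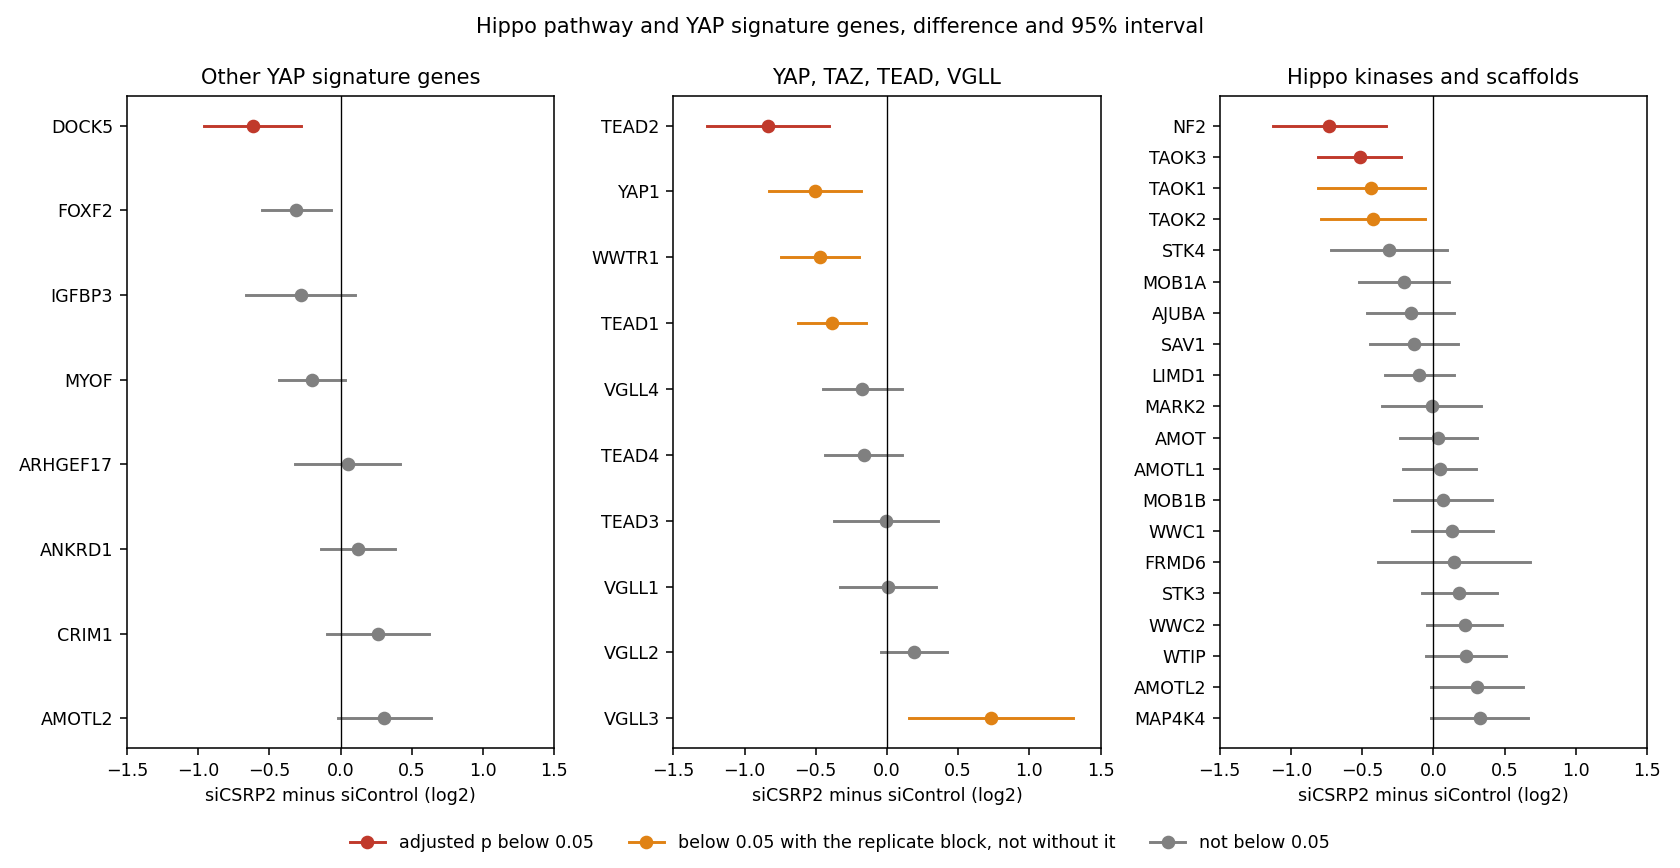
Difference of siCSRP2 minus siControl (log2, points) with 95% intervals from the fit across all genes for the other measured YAP signature genes, the YAP, TAZ, TEAD and VGLL genes, and the Hippo kinases and scaffolds. DOCK5, TEAD2, NF2 and TAOK3 pass the test (red), and YAP1, WWTR1, TEAD1, TAOK1, TAOK2 and VGLL3 pass with the replicate block and not without it on the values as deposited (orange), VGLL3 being the only coloured gene above 0.

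CCN3 and CCN4, relatives of CCN2, fell. Of 4 other measured CCN genes, 2 fell, CCN3 and CCN4, 0 rose, and CCN5 (-0.02) and CCN6 (0.11) did not pass. At an unadjusted p of 0.05 the same 2 were lower and 0 higher, where over all genes 6.54% fell, 0.800% rose and 17.4% were lower at the unadjusted p. CCN4, a secreted protein induced by Wnt signalling, measured 4.17, 3.73 and 3.50 on siCSRP2 arrays, against 5.97, 6.07 and 4.64 on siControl arrays. The groups did not overlap, with siControl 3 the nearest, and CCN4 fell 3.39-fold (log2 difference -1.76, SE 0.35, limma adjusted p = 0.0244).

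CCN3 measured 6.59, 6.77 and 7.01 on siCSRP2 arrays, against 8.07, 7.65 and 7.35 on siControl arrays, with no overlap. It fell 1.87-fold (log2 difference -0.90, SE 0.19, limma adjusted p = 0.029). Of 6 fits that left out an array, CCN4 passed in 2, those without siControl 3 and without siCSRP2 1, and CCN3 in 1, that without siControl 3. In the other fits adjusted p ran from 0.0948 to 0.111 for CCN4 and from 0.0648 to 0.115 for CCN3.

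The relatives of AXL and FJX1 gave no call. Of 5 other TAM genes measured, 0 rose and 0 fell by limma, and at an unadjusted p of 0.05, 1 was higher and 1 lower. Of all genes 0.800% rose and 6.54% fell, and 6.32% were higher and 17.4% lower at the unadjusted p. GAS6, the ligand of AXL, averaged 3.20 ± 0.12 in siCSRP2 and 3.56 ± 0.08 in siControl cells (SD, n = 3 each), a difference of -0.35 (limma adjusted p = 0.096). The receptors TYRO3 (0.07) and MERTK (-0.03) and the ligand PROS1 (0.01) lay near 0, and TULP1, another reported ligand, differed by 0.33 (limma adjusted p = 0.132). The 95% intervals reached from -0.19 to 0.33 for TYRO3 and from -0.29 to 0.23 for MERTK. Of 5 Fat and Dachsous cadherins, 0 rose and 0 fell by limma, and 0 passed at an unadjusted p of 0.05. FAT1 differed by -0.43 (95% interval -0.88 to 0.03), and FAT2 (0.19), FAT3 (0.23), FAT4 (-0.04) and DCHS1 (-0.01) by less. Over all arrays MERTK stayed between 2.13 and 2.40, FAT3 between 2.31 and 2.84 and DCHS1 between 2.32 and 2.68. No detection call was at hand to tell such levels from background. The relatives listed for CCDC80, SRPX and SRPX2, were not analysed here.

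**Figure D5:**
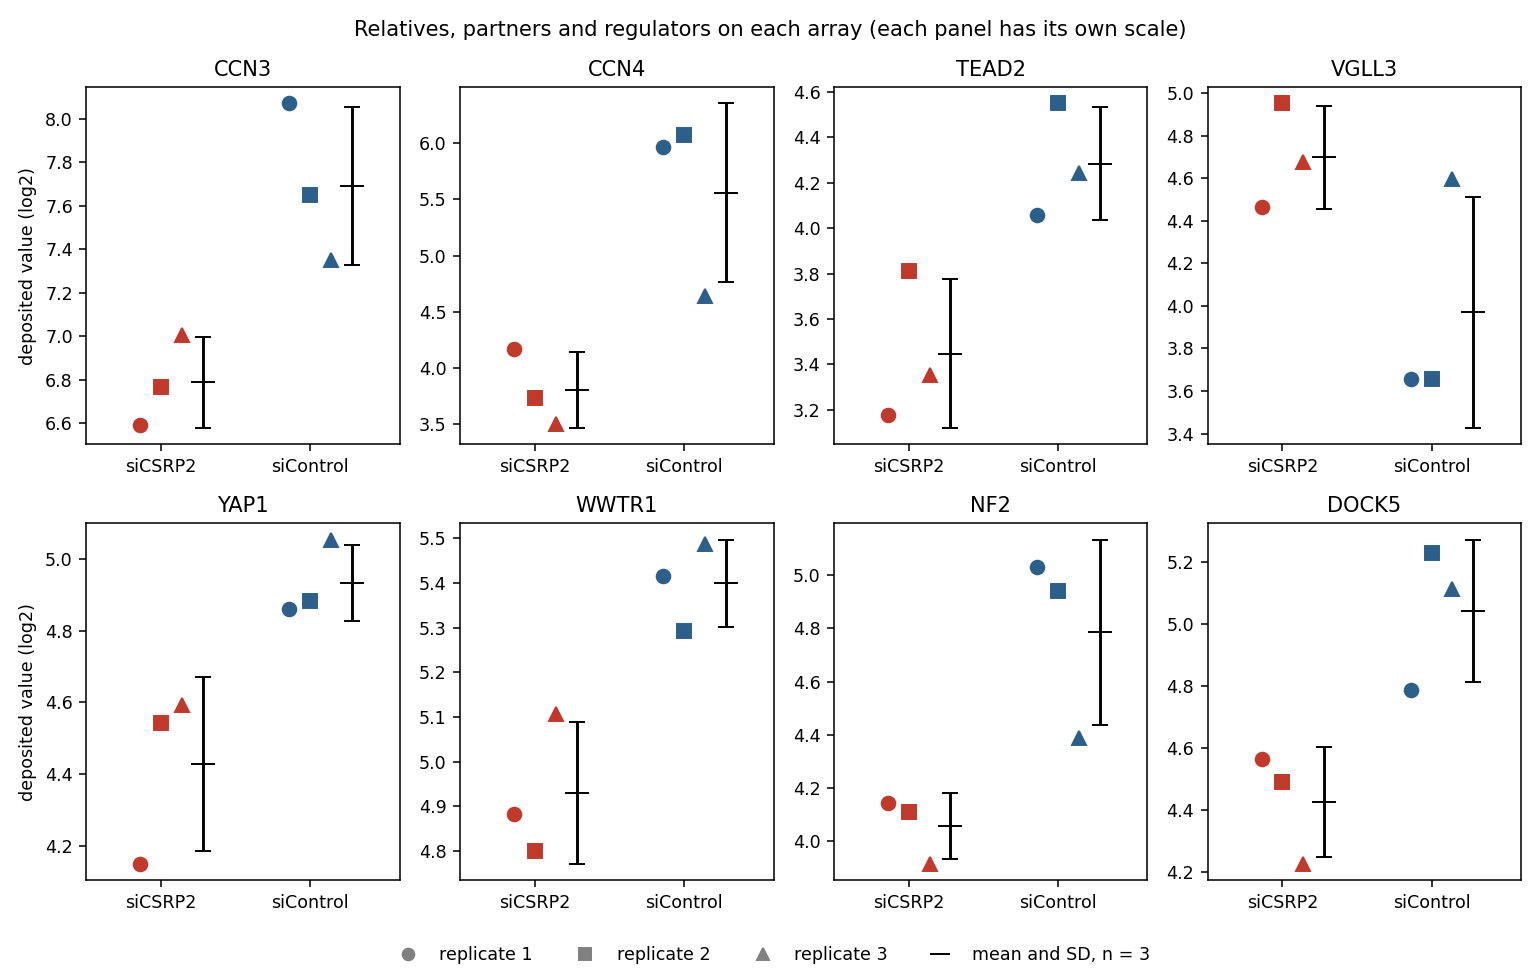
Deposited log2 values on the 3 siCSRP2 (left, red) and 3 siControl arrays (right, blue) for CCN3 and CCN4, TEAD2, VGLL3, YAP1, WWTR1, NF2 and DOCK5, with mean and SD (n = 3) and a separate scale in each panel. The siCSRP2 arrays lie below all siControl arrays in each panel except that of VGLL3, where siControl 3 falls among the siCSRP2 values.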

How the data were processed

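RNA from 3 siCSRP2 and 3 siControl samples of Hs578T cells was read on Affymetrix HuGene 2.0 arrays. For each probe set and array the authors deposited 1 value, taken as log2 because a larger base would carry the highest values past the range of a scanner. Partek is listed, per the submitters' processing notes, with no role stated. Not given in the sources used here are background correction, summarisation, normalization and genome build. The array medians were 2.80 to 2.82 in siCSRP2 and 2.70 to 2.76 in siControl, so the deposited values do not share 1 distribution. Whether the arrays were scaled at an earlier step is not known. Without detection calls, low values have no marked limit, and a fold may be too small where the signal is dim. Precision is limited by the number of arrays.

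Of 53617 probe sets, 16098 had 1 gene symbol in the platform annotation, 0 had several and 37519 are unnamed here; all 16098 matched RefSeq (GRCh38.p14) for current symbols. The brightest probe set stood for each of 14884 genes, with no filter and no further scaling. Groups came from the sample titles. Groups were compared by limma 3.58.1 in R 4.3.3 (lmFit, eBayes, group as the only term), two-sided, at a threshold of 0.05 after Benjamini-Hochberg adjustment across all genes. An exact test of 3 against 3 cannot go below p = 0.1 and was not used. The 4 genes and the gene lists were chosen with earlier results of these data known. Named are the 4 genes, CSRP2, all genes of the signature, effector, TAM, CCN and Fat lists, genes of the other lists that passed with or without the block or had the smallest p, and per gene the 3 most correlated genes of above-median mean, leaving out small and uncharacterised RNA genes. ESR1, STK3, STK4, SAV1, MOB1A and MOB1B were named outside this rule, with their values seen.

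The labels do not say that a replicate number marks a shared plate or day. Deviations from group means, correlated over all genes, gave r = 0.30, 0.19 and 0.32 for arrays of equal number and -0.26 to 0.05 for unequal numbers. Every equal pair exceeded 0.1, a measure from the data and not the labels. Centring within each group ties these correlations together, since high equal pairs push the unequal ones down. With 3 arrays per group they cannot settle whether the numbers pair the arrays. The main calls come from the fit without a block, and the value with the replicate block is given where it changes a call. Other alternatives were quantile normalization, cyclic loess, median centring, the mean of probe sets, an intensity trend, leaving out the dimmest 25% or 50% of genes, and leaving out each array. Simulated data of 14884 genes with 200 changed were used as a check: 78 of 100 genes changed by 1 log2 unit and 96 of 100 changed by 2 were recovered, with 9 false calls among 183. The simulated noise was drawn separately for each gene and array, with no effect shared by an array or a replicate number. The check therefore shows that the fit runs as intended and does not give the error rate in these data.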

Additional observations from a re-analysis of the deposited data

How the results depend on the processing

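The 4 genes kept their direction under every alternative run, though many of the alternatives could not change it. The replicate block, the intensity trend and leaving out dim genes keep a gene's difference as it is. Since the groups did not overlap for any of the 4, leaving out 1 array could not reverse a sign either. CCN2 moved most, to 0.39 as the mean of its probe sets and 0.16 on the other probe set. With 1 array left out, AXL ran from -1.95 to -1.54, CCDC80 from -1.36 to -1.14, FJX1 from -1.53 to -1.06 and CCN2 from 0.49 to 0.77. Genes past the threshold numbered 1093 (89.1% falls) and 2348 with the replicate block, and from 91 (without siControl 2) to 2620 (without siControl 3) with 1 array left out. Falls made up 76.0% of 876 calls under quantile normalization, 77.7% of 884 with cyclic loess and 94.5% of 1557 when medians were centred. At an unadjusted p of 0.05 (limma), 3249, 3259 and 3742 of the 14884 genes passed under these 3 settings. With an intensity trend 1077 passed, and 3609 unadjusted. Without siControl 1 157 passed, and without siCSRP2 3 285 passed. The counts for the lists below stand beside these shares of all genes. The dimmest 50% of genes left out moved the median difference of all genes to -0.15. The 1 call among the other signature genes became 0 after quantile normalization and cyclic loess (limma, 4 at an unadjusted p of 0.05 in both) and with an intensity trend (2 unadjusted), and lay between 0 and 1 with 1 array left out. The 3 calls over the 30 Hippo and effector genes of both lists (NF2, TAOK3 and TEAD2) became 0 after quantile normalization and cyclic loess (limma, 9 and 11 unadjusted), 6 after median centring and 9 with the replicate block, and lay between 0 (without siControl 1, siControl 2 or siCSRP2 3) and 5 (without siControl 3) with 1 array left out. The cause of these changes was not tested. The 24 listed genes that passed with or without the block were tested singly under 14 alternatives each. Of these tests, 80 lost a call, 19 gained one, 237 stayed on their side of the threshold and 0 reversed. The block was itself 1 of the 14, and genes passing only with it gained that call by the way the 24 were chosen.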

Other observations

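CCN2 is also listed as a target of TGF-beta and of SRF with MRTF. Of 4 other measured TGF-beta induced genes, 1 rose, SKIL, and 3 did not pass, where 0.800% of all genes rose. SKIL, a repressor of SMAD signalling that TGF-beta induces, measured 5.99, 6.29 and 6.42 on siCSRP2 arrays, against 4.99, 5.13 and 5.87 on siControl arrays. The groups did not overlap, and the difference was 0.90 (SE 0.23, limma adjusted p = 0.048). It passed in 1 of 6 fits that left out an array, that without siControl 3 (adjusted p = 0.00141), and missed the threshold after median centring (limma adjusted p = 0.0523). SMAD7 differed by 0.16, LTBP2 by -0.15 and TAGLN by 0.02. TAGLN stayed between 2.17 and 2.34 on all arrays, a level that could not be told from background without a detection call.

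Of 11 other measured SRF and MRTF targets, 4 fell, 0 rose and 7 did not pass, and 10 of the 11 were lower in siCSRP2. Over all genes 6.54% fell. At an unadjusted p of 0.05, 9 were lower and 0 higher, where over all genes 17.4% were lower. With the replicate block 6 of the 11 fell, where 13.1% of all genes fell. Beside TGFB1I1, those that fell were vinculin, VCL (-0.71), caldesmon, CALD1 (-0.54), and the actin-severing DSTN (-0.54). The calponin CNN2 (-0.95) and the tropomyosin TPM4 (-0.51) passed with the block (limma adjusted p = 0.00301 and 0.0154) and not without it (0.136 and 0.115), though without siControl 3 both passed with no block (0.0234 and 0.0246). CALD1 and DSTN did not pass after quantile normalization (limma adjusted p = 0.0786 and 0.184), where DSTN was nearer 0 (-0.35). VCL and CALD1 passed in 2 of 6 fits that left out an array, those without siControl 3 and without siCSRP2 1, and DSTN in 1, that without siControl 3, while the other fits gave adjusted p of 0.0507 to 0.16. TGFB1I1, a LIM adaptor of focal adhesions, averaged 5.36 ± 0.09 in siCSRP2 and 6.50 ± 0.27 in siControl cells (SD, n = 3 each), a difference of -1.15 (limma adjusted p = 0.00721) that passed in 6 of 6 fits leaving out an array. The median of the 11 was -0.51, beside 0.02 over all genes. Their differences ran from -1.15 to 0.02, the upper end being that of the dim TAGLN. CCN2 differed by 0.62, or by 0.16 on its other probe set. The part of SRF and MRTF in these differences was not tested. Of 12 measured epithelial and luminal markers 0 passed by limma, and 9 were higher and 3 lower in siCSRP2, with a median of 0.13, beside 0.02 over all genes. At an unadjusted p of 0.05, 2 were higher and 1 lower, where 6.32% of all genes were higher and 17.4% lower. KRT18, a keratin of simple epithelia, ran the other way at -0.74 (limma adjusted p = 0.0635). It passed with the replicate block (0.00746), after median centring (0.0451), with the dimmest 50% of genes left out (0.0411) and without siControl 3 (0.00269). KRT18 did not pass under the other alternatives, among them the mean of its probe sets (-0.53, limma adjusted p = 0.103) and quantile normalization (0.109).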
